A study of Homo sapiens with 18 samples.

Results

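QKI binding in beating cardiomyocytes at day 8 of differentiation was compared with binding in the pluripotent cells they came from at day 0. The members were the 3 QKI immunoprecipitation (IP) libraries of day 8 and the 3 of day 0, chosen by their sample titles, which are 6 of the 9 IP libraries and of the 18 samples of the series. With them came the authors' merged lists of reproducible peaks, 1576 at day 8 and 7778 at day 0, together 9354 of the 10301 reproducible peaks of the series. Both groups were of HUES6, 1 human embryonic stem cell line with no transgene named in the labels. Day 0 cells were plated in growth medium and crosslinked the next day. Day 8 cells had been given 1.5 uM CHIR and 1.5 ng/mL BMP4 at the start and then 100 nM C59, and were taken after beating was seen. Both groups were irradiated with 400 mJ/cm2 of ultraviolet light and precipitated with the same anti-QKI antibody. RNA-protein complexes of 40 to 115 kDa were cut from the membrane. Whether each library had its own culture is not in the labels, and the p-values below then measure only a spread that may be technical.

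QKI belongs to the STAR family of proteins, which bind RNA. It binds RNA mainly at sequences that hold ACUAA, often in introns, and regulates which exons are spliced in. In heart muscle it is known as a regulator of the splicing of sarcomere and cytoskeletal transcripts. In eCLIP the protein is linked to RNA by ultraviolet light and precipitated, and the RNA it holds is sequenced beside a size-matched input. A peak therefore needs both the transcript and the protein on it, so RNA level and binding cannot be told apart in these lists, nor can fewer cells of a type and less RNA per cell.

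Peak lists were compared by position, with no read depth known. A peak counted as passing here when the authors' values put its enrichment at 4-fold or more and its p at 0.001 or less. Genes were named from general knowledge of gene positions in the hg19 build, since no annotation of that build was used here. A name can therefore be wrong where a coordinate is not, and tested loci are given with their positions. All coordinates are hg19 and count from 1.

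Day 8 libraries held fewer passing peaks than day 0 libraries. The day 0 libraries held 15508, 12695 and 13069 passing peaks and the day 8 libraries 6320, 3726 and 10966, so the groups did not overlap. The ratio of the means was 0.509 (two-sided exact permutation p = 0.1, the smallest value that 3 against 3 libraries allow). Day 8 replicate 2 stood apart with the shortest list. Its 3726 peaks set the equal number used below as a control for list length. Peaks were ranked by fold for this, so the lowest log2 fold kept differed. It was 5.23, 4.61 and 4.58 in the day 0 libraries and 3.63, 2.00 and 4.69 in the day 8 libraries. Weaker passing peaks of day 0 thus count as absent in that setting, while day 8 replicate 2 keeps all of its own. Median widths of passing peaks were 68 to 69 nt at day 0 and 64 to 66 nt at day 8, and the plus strand carried 55.3% to 55.8% of them at day 0 against 51.6% to 52.8% at day 8.

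On average, libraries of a day resembled each other more than those of the other day. The Jaccard index, the length covered by passing peaks of both libraries over that covered by either, was 0.376 to 0.413 between day 0 libraries, 0.205 to 0.268 between day 8 libraries and 0.110 to 0.207 across days. The mean within days exceeded the mean across days by 0.172 (one-sided exact permutation p = 0.1, the smallest that the 10 partitions allow), and by 0.144 with equal numbers of peaks. Day 8 replicate 3, with the longest day 8 list, stood nearest to day 0 at 0.181 to 0.207, against 0.110 to 0.136 for the other day 8 libraries, which put it as near to day 0 replicate 2 (0.207) as to day 8 replicate 2 (0.205). With equal numbers the index across days was 0.156 to 0.176 for all of them. Day 8 replicate 3 then stood at 0.176 to day 0 replicate 2 and at 0.216 to day 8 replicate 2.

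The libraries carried peaks on some markers of their labelled cells. The 10 cardiomyocyte markers together took 0.0394% to 0.0842% of passing peaks at day 0 and 2.52% to 3.97% at day 8, although MYH7, a myosin heavy chain, had no passing peak in any library. The 8 pluripotency markers took 0.142% to 0.291% at day 0 and 0.0316% to 0.0805% at day 8, with SOX2 and NANOG at 0 in every library. DNMT3B held 16, 13 and 17 of their day 0 peaks, and POU5F1 1, 1 and 2. LIN28A overlapped, with 1, 1 and 3 at day 0 and 2, 1 and 1 at day 8. With equal numbers of peaks 0 of the 8 were lower in every day 8 library, while 5 of the 10 cardiomyocyte markers were higher. The 7 smooth muscle and fibroblast markers were at 0 in the 3 day 0 libraries and summed to 22, 1 and 1 peaks in the day 8 libraries, with MYH11 and CNN1 at 0. Day 8 replicate 1 held 12 of its 22 on COL3A1, a fibrillar collagen, 4 on ACTA2, smooth muscle actin, and 4 on COL1A1. It also held 19 passing peaks on ACTC1, cardiac actin, against 0 and 1 in the other day 8 libraries. The part of these genes in the results was not tested. Endoderm markers (AFP, SOX17, FOXA2 and APOA2) had no passing peak, 3 mapped endothelial markers took at most 0.0456%, and of the neural markers PAX6, SOX1 and MAP2 had none.

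Sites of day 8 were for the most part also sites of day 0, while most day 0 sites had no day 8 counterpart in the lists. Of the day 8 reproducible peaks, 1020 of 1576 overlapped a day 0 reproducible peak on the same strand by at least 1 nt, or 64.7% (Wilson 95% interval 62.3% to 67.0%). In the other direction 1326 of 7778 did, or 17% (16.2% to 17.9%). When the day 0 list was shortened to its 1576 most enriched peaks, 31.7% of day 8 peaks overlapped it, and 47.5% of it overlapped day 8. The lists pool the libraries of a day, so these shares have no replicate spread, and the intervals cover counting error only.

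New positions at day 8 mostly lay far from day 0 peaks. Of the day 8 reproducible peaks, 24.3% were more than 20 kb from any day 0 reproducible peak on their strand, against 2.92% at up to 100 nt, 3.62% beyond that up to 1 kb and 4.44% from there to 20 kb. Of the day 0 peaks, 69.2% were more than 20 kb from any day 8 peak. These shares depended on list length. With the day 0 list shortened to its 1576 most enriched peaks, 52.7% of day 8 peaks were more than 20 kb from it. Of that shortened list, 35.4% were more than 20 kb from any day 8 peak, so the order turned. Absence from the other day's list did not always mean absence of signal. Of the 556 day 8 peaks with no day 0 counterpart, 34.0% had a passing peak in at least 1 day 0 library, 23.9% a cluster below the threshold and 42.1% no cluster of any fold. Of the 6452 day 0 peaks with no day 8 counterpart, these shares were 46.1%, 22.1% and 31.8%.

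Merging the passing peaks of the 6 libraries gave 26390 regions. Of these, 493 (1.87%) were bound in 3 of 3 day 8 libraries and no day 0 library, called gained here. Another 2784 (10.5%) were bound in 3 of 3 day 0 libraries and no day 8 library, called lost, and 1084 (4.11%) were bound in every library of both days, called shared. The excess of lost over gained regions was smaller with equal numbers of peaks, a setting that cuts the days at unlike folds. Its cause was not tested. With the 3726 strongest peaks of each library the counts were 355 gained, 385 lost and 368 shared. When presence was judged on those strongest peaks and absence on all passing peaks, they were 195, 300 and 368. Without day 8 replicate 2, 1058 regions were gained and 1634 shared. No cluster of any fold lay in the other day's libraries at 294 of the gained and 1500 of the lost regions.

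**Figure D1:**
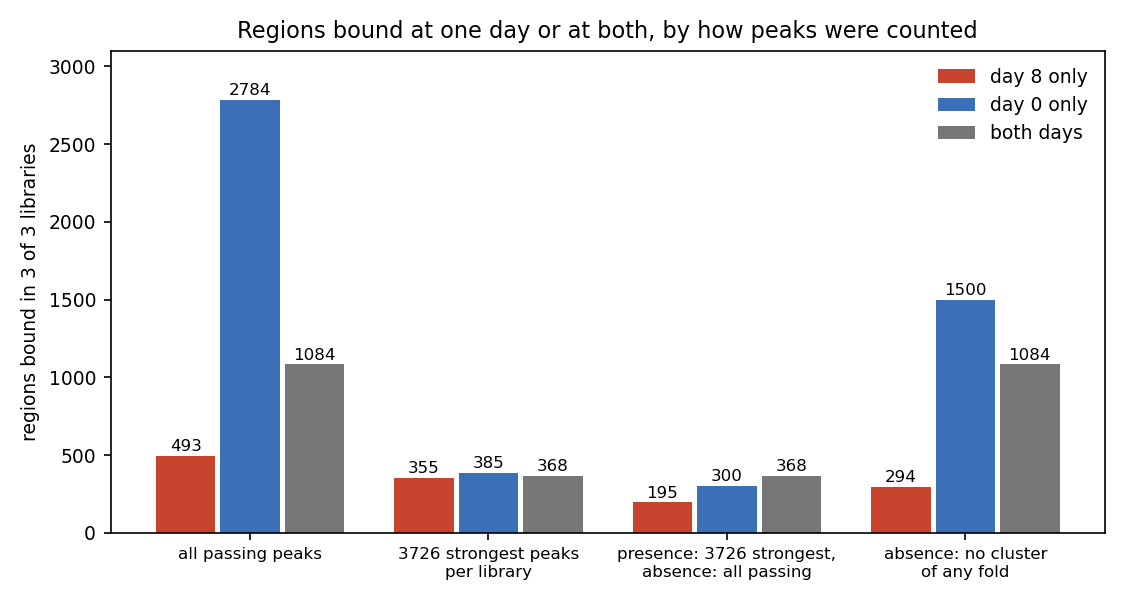
Bars give the number of regions bound in 3 of 3 libraries of day 8 and none of day 0 (red), of day 0 and none of day 8 (blue) or in every library of both days (grey), for 4 ways of judging presence and absence. With all passing peaks 2784 regions were bound at day 0 alone against 493 at day 8 alone, and with 3726 peaks per library 385 against 355.

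Gained and lost regions rarely shared a locus. Regions of the 3 kinds within 20 kb on the same strand formed 2661 loci. Gained regions without any lost or shared region made up 247 loci, gained beside shared regions 37, and gained together with lost regions 9. TPM1, SPTBN1 and QKI itself were among those 9, with 1, 1 and 3 gained regions. Lost regions stood without gained or shared ones at 1630 loci and beside shared regions at 182, and shared regions stood without the other kinds at 556.

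Among the 294 gained regions with no cluster at day 0, the most enriched lay in heart genes and in genes with other roles. With 1 region taken per locus, these included TTN. In this gene, which encodes the giant sarcomere protein titin, a region at chr2:179622079-179622233 on the minus strand had authors' log2 folds over input of 6.52, 6.84 and 7.82 at day 8. CORIN, the heart protease that activates atrial natriuretic peptide, had one at chr4:47636904-47637248 on the minus strand with 5.87, 6.68 and 7.40. The others by this rank were a plus-strand region at chr7:99194307-99194409 where no gene was named (7.91, 6.74 and 6.51), PDE4D, a cyclic AMP phosphodiesterase (5.82, 5.72 and 6.89), DFFB, an apoptotic nuclease (5.61, 6.01 and 5.49), and FBN2, a fibrillin of the extracellular matrix (7.12, 5.46 and 5.42). These regions were ranked by their lowest fold of 3 libraries, so the folds describe the choice.

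Among the 1500 lost regions with no cluster at day 8, the most enriched were led by MIAT, a nuclear long noncoding RNA. Its region at chr22:27067840-27067903 on the plus strand had log2 folds of 9.45, 8.38 and 8.46 at day 0. Next came MMP16, a membrane metalloprotease (7.13, 6.95 and 7.10), a plus-strand region at chr3:138669792-138669962 with no gene named (6.86, 7.68 and 7.14), GMDS, an enzyme of fucose synthesis (8.95, 6.71 and 8.56), TMEM245, a membrane protein (8.51, 6.70 and 6.91), and OSBPL10, an oxysterol-binding-like protein (7.00, 7.48 and 6.61). Some genes held both lost and retained positions. GMDS kept 3 shared regions beside 3 lost ones, and MIAT 4 beside 7.

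Shared regions were ranked by the lowest fold of their 6 libraries. First was a plus-strand region at chr17:18965358-18965443, at the U3 small nucleolar RNA genes of 17p11.2, with log2 folds of 10.49, 10.20 and 10.82 at day 0 and 9.97, 9.47 and 8.56 at day 8. In MIAT a 376-nt region at chr22:27067221-27067596 had 11.07, 11.30 and 10.68 at day 0 and 7.95, 9.71 and 9.16 at day 8. The next were ECPAS, a proteasome adaptor (lowest of 6 libraries 7.77), a plus-strand region at chr3:197895607-197896153 with no gene named (7.57) and GP6, the platelet collagen receptor (7.55). The U3 genes are near-identical copies, so peaks there cannot be assigned to 1 copy.

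Whole loci differed between the days. Joining the 2 lists of reproducible peaks at gaps of up to 20 kb per strand gave 3718 loci, and 515 of them (13.9%) held peaks of both lists. Day 0 alone accounted for 3010 loci (81%), and day 8 alone for 193 (5.19%). Each library's share of passing peaks was tested at the 121 loci that had 10 or more reproducible peaks (limma, Benjamini-Hochberg adjusted over the 121), and 49 (40.5%) differed. At day 8 19 loci (15.7%) had a higher share and 30 (24.8%) a lower one, and 72 passed in neither direction. The median difference over the 121 was -0.06 (log2). A higher share is not always more peaks, because the day 8 totals were smaller. Of the 19 higher loci, 10 also held more passing peaks in every day 8 library than in any day 0 library and 9 overlapped. The 30 lower loci all held fewer in every day 8 library, but so did 56 of the 72 uncalled loci. Over all 3718 loci 48.5% held fewer and 4.46% more, so fewer peaks do not set the lower calls apart.

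The requirement of 10 reproducible peaks used the same libraries as the test. Of the 19 higher loci, 9 met it through day 8 peaks with fewer than 10 at day 0, and of the 30 lower loci 29 met it through day 0 peaks with fewer than 10 at day 8, so these had in part to differ. Their values are given as a description without p-values, and the counts of called loci are read as a description too. No p is therefore given for TTN, PDLIM5, COL13A1, SORBS2, VCAN, ADGRD1, ATP2A2 or the lower loci except MIAT. In all loci limma took the variance from the trend over loci, which makes the remaining p-values small.

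The split moved with the scaling. Equal peak numbers gave 14 higher and 47 lower loci, with a median locus at -0.60, and a covariate for list length gave 9 and 57, with the median at -0.90. Counting every listed cluster gave 41 higher and 22 lower, with the median at 0.47. Of the loci called on all passing peaks, 9 of the 19 higher and 23 of the 30 lower were called the same way with equal numbers. Without day 8 replicate 3, 30 loci were higher, and without day 0 replicate 3 or day 8 replicate 1, 11.

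**Figure D2:**
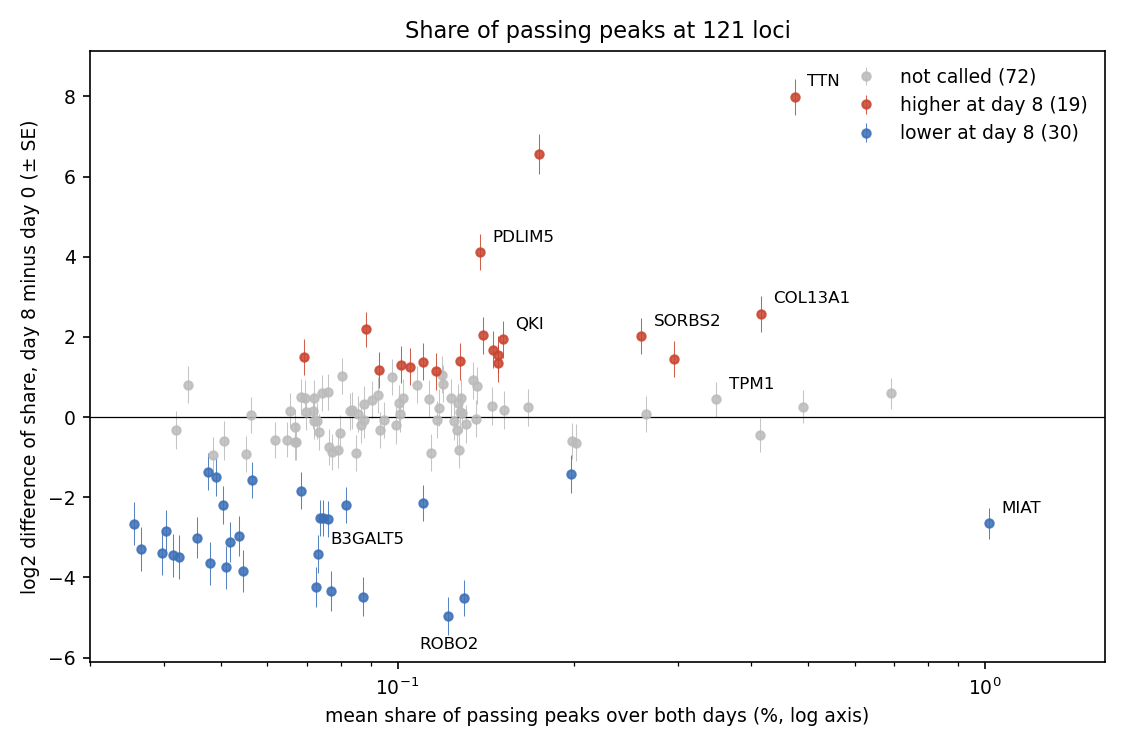
Each point is 1 of 121 loci, with its mean share of passing peaks over both days on a log axis and its log2 difference of share, day 8 minus day 0, with the standard error as a bar. The 19 loci called higher are red and the 30 called lower are blue. The TTN loci reach 7.99 and 6.57, and MIAT has the highest mean share at -2.65.

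At the level of footprints the called loci went in opposite ways. A footprint here is a stretch of overlapping reproducible peaks, merged over both lists. The 19 higher loci held 65 footprints common to both days, 10 of day 0 alone and 95 of day 8 alone. The 30 lower loci held 10, 331 and 0, and the 72 uncalled loci 193, 387 and 10. The footprints come from the lists that also defined the loci, so they describe the calls and do not support them.

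TTN had the largest log2 difference of the loci called higher. Titin spans the sarcomere from Z-disc to M-line and is spliced into isoforms of different stiffness. Its locus at chr2:179506621-179558861 on the minus strand held 0 passing peaks in each day 0 library and 58, 46 and 76 in those of day 8, a day 8 share of 0.948% ± 0.272 (SD, n = 3). The share was at least 118-fold higher at day 8, taking 3 peaks over the day 0 group as the floor (log2 difference 7.99 ± 0.45 SE). A neighbouring locus at chr2:179585006-179623624 held 21, 17 and 28 against 0, at least 43.2-fold higher (log2 difference 6.57 ± 0.50). The loci held 25 and 13 footprints, all of day 8. Over the whole gene the day 8 libraries held 95, 80 and 140 passing peaks and 45 regions were gained.

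PDLIM5, a Z-disc protein with PDZ and LIM domains, went from a few peaks to many. At chr4:95502992-95541250 on the plus strand it held 1, 2 and 2 passing peaks at day 0 and 17, 12 and 22 at day 8 (log2 difference 4.12 ± 0.45). The ratio of shares on summed peaks was 20.04, with an exact counting interval of 8.05 to 64.3. Of its 7 reproducible footprints 1 was common to both days and 6 belonged to day 8. Over the whole gene 9 regions were gained, 0 lost and 5 shared.

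COL13A1, a transmembrane collagen, had a dense cluster at chr10:71665759-71676846 on the plus strand. It held 13, 17 and 15 passing peaks at day 0 and 33, 43 and 53 at day 8, so every day 8 library was above every day 0 library (log2 difference 2.58 ± 0.44). The footprints showed 5 positions common to both days, 1 of day 0 and 13 of day 8. The last day 0 peak began 4.05 kb into the locus, and the last of day 8 at 10.996 kb.

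SORBS2, an adaptor protein of the Z-disc and actin cytoskeleton, was bound at both days. Its locus at chr4:186562496-186606115 on the minus strand held 13, 15 and 12 passing peaks at day 0 and 26, 22 and 29 at day 8 (log2 difference 2.02 ± 0.46). All day 0 footprints recurred, as 7 footprints common to both days, and 5 more belonged to day 8. VCAN, the matrix proteoglycan versican, held 6, 9 and 6 against 12, 13 and 16 (2.04 ± 0.46). ASPH, whose gene also encodes the sarcoplasmic reticulum protein junctin, held 5, 4 and 3 against 11, 7 and 9 (2.19 ± 0.45, limma adjusted p = 5.72e-06).

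QKI bound its own transcript at both days. At chr6:163970877-163995212 on the plus strand its locus held 9, 8 and 7 passing peaks at day 0 and 15, 13 and 16 at day 8, without overlap between the groups (log2 difference 1.94 ± 0.46, limma adjusted p = 0.000127). Footprints common to both days numbered 4, with 1 of day 0 and 3 of day 8. Its called direction held with equal numbers of peaks (log2 difference 1.42, limma adjusted p = 0.00914).

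**Figure D3:**
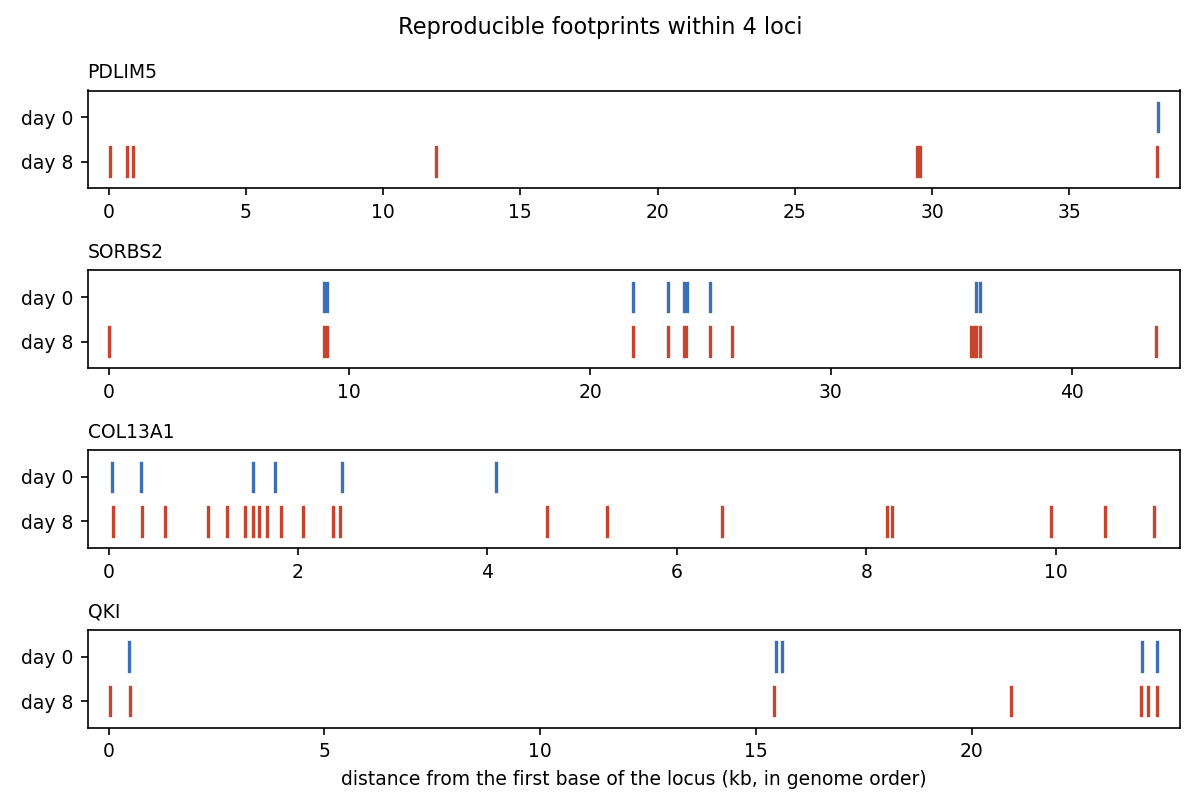
Vertical marks give reproducible QKI peaks, merged within a day only, of day 0 (blue, upper row) and day 8 (red, lower row) within the loci of PDLIM5, SORBS2, COL13A1 and QKI, as distance in kb from the locus's first base. Day 8 has marks between and beyond those of day 0, with 7 against 1 in PDLIM5, 14 against 9 in SORBS2, 21 against 6 in COL13A1 and 7 against 5 in QKI.

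The other loci called higher, given after their values were seen, differed less. ADGRD1, an adhesion G protein-coupled receptor, held 11, 8 and 7 passing peaks at day 0 and 12, 14 and 13 at day 8 (log2 difference 1.69 ± 0.46) and was not called with equal numbers of peaks. MICAL3, of the same enzyme family as MICAL2, held 19, 25 and 20 against 28, 20 and 35, which overlapped, and was called on its share (1.45 ± 0.45, limma adjusted p = 0.00405, and 0.0149 with equal numbers). FHOD3, a formin of cardiac sarcomeres, held 5, 4 and 5 against 5, 6 and 8, which overlapped too (1.49 ± 0.45, limma adjusted p = 0.00291, and 0.148 with equal numbers). At FHOD3, COL4A5, SPTBN1, PICALM, PFDN1, PNPLA7 and the unnamed loci from 99193056 on chromosome 7 and 5142935 on chromosome 17 the peak numbers overlapped between the days and the call was not made with equal numbers.

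ROBO2, a receptor for SLIT guidance cues, held the largest negative log2 difference among the loci called lower. Its locus at chr3:76198522-76287701 on the plus strand held 35, 39 and 26 passing peaks at day 0 and none at day 8, at least 16.97-fold lower (log2 difference -4.96 ± 0.47). The locus from 75993511 held 26, 19 and 19 against none, at least 10.9-fold lower. No cluster of any fold was listed at either in any day 8 library, where day 0 libraries listed 94 to 141. Over the whole gene 136, 125 and 107 passing peaks at day 0 stood against 0, 0 and 1 at day 8, and 56 regions were lost.

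B3GALT5, a galactosyltransferase that makes the stem cell glycolipid antigen SSEA-3, held 22, 19 and 17 peaks at chr21:40994871-41038963 on the plus strand at day 0 and 0, 0 and 2 at day 8 (log2 difference -3.42 ± 0.47). A plus-strand locus at chr8:72594116-72606830, where no gene was named, held 17, 14 and 14 against none (log2 difference -3.84 ± 0.52). DNMT3B, the de novo DNA methyltransferase of pluripotent cells, went from 14, 12 and 13 to 0, 1 and 0 (log2 difference -3.12 ± 0.51). ESRP1, an epithelial splicing regulator, was chosen after its values were seen and held 12, 13 and 11 against 0, 0 and 1. The loci of DNMT3B, HSD17B14, SEMA6A, MAGED1 and PFN2 and the chromosome 8 locus were among the lower loci that were not called with equal numbers of peaks.

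MIAT lost most of its peaks and kept some. Its locus at chr22:27065918-27070593 was the fullest of day 0, with 230, 240 and 236 passing peaks per library and 16, 19 and 16 at day 8 (log2 difference -2.65 ± 0.38, limma adjusted p = 9.14e-11). The share fell from 1.73% ± 0.215 to 0.303% ± 0.187 of passing peaks (SD, n = 3). Its footprints numbered 39 of day 0 and 5 common to both days, with none of day 8 alone. In the shared 376-nt region the day 0 libraries listed 44, 47 and 48 clusters and the day 8 libraries 4, 4 and 2. Part of the fall in peak number therefore lay within a region bound at both days.

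**Figure D4:**
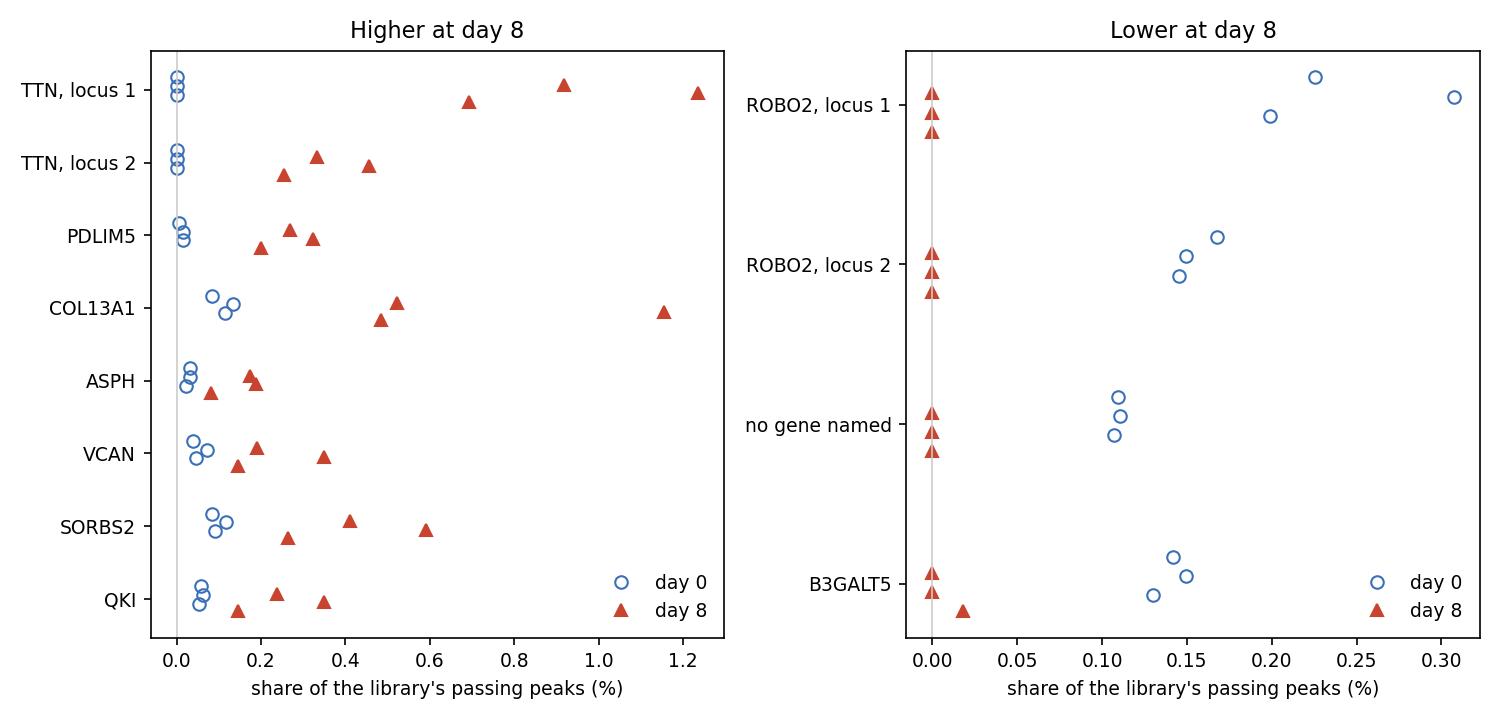
Points give the share of each library's passing peaks, in percent, at 8 loci called higher and 4 called lower at day 8, with day 0 as open circles and day 8 as filled triangles. In both panels the day 0 and day 8 libraries do not overlap at any of the 12 loci, and the panels have different axes. The loci were chosen for a small limma p on these same shares, so the separation describes the choice.

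Among loci that passed in neither direction, those with the most reproducible peaks lay on mitochondrial RNA, PLEKHG4B, TPM1 and a plus-strand locus from 10778692 on chromosome 6. TPM1, the tropomyosin that winds along actin filaments and is spliced differently in muscle, held 37, 47 and 34 passing peaks at day 0 and 21, 23 and 30 at day 8 (log2 difference of share 0.44 ± 0.43, limma adjusted p = 0.445, and 0.00417 on all listed clusters). Its footprints numbered 6 common to both days, 9 of day 0 and 1 of day 8. The mitochondrial plus-strand locus held 86, 80 and 62 against 63, 28 and 82 peaks (0.59 ± 0.38, limma adjusted p = 0.221, and 0.0129 with equal numbers of peaks). PLEKHG4B, a guanine nucleotide exchange factor, held 65, 67 and 59 against 20, 21 and 23 (-0.45 ± 0.42, limma adjusted p = 0.435, and 0.00142 with equal numbers). The chromosome 6 locus held 59, 63 and 57 against 35, 27 and 38 (0.26 ± 0.41, limma adjusted p = 0.662).

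The lists of heart, stem cell and other genes were described by counts over whole genes, without a test. For reference, passing peaks were higher in every day 8 library than in every day 0 library at 4.46% of the 3718 loci and lower at 48.5%. With equal numbers of peaks these shares were 5.51% and 10.4%. These reference units are loci and not genes, and a long gene can span several loci.

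Some sarcomere genes held passing peaks at day 8 at positions where day 0 libraries had none. Of 19 genes, 5 held reproducible peaks at day 8 alone, 4 at both days and 10 at neither, and 8 held more passing peaks in every day 8 library (6 with equal numbers of peaks). Together they had 72 gained, 2 lost and 18 shared regions. The gained regions lay in 8 of the 19 genes, and TTN held 45 of the 72. A gained region can hold a day 0 cluster below the threshold. No day 0 cluster lay at 39 of the 45 in TTN and at 5 of the 7 in NEBL. Over the whole gene the day 0 libraries listed 11, 10 and 11 clusters in TTN and 4, 12 and 23 in NEBL. Their share of passing peaks was 0.445% to 0.630% at day 0 and 2.98% to 5.21% at day 8, and the day 8 range was the same without replicate 1. Besides TTN, NEBL, the thin filament and Z-disc protein nebulette, held 21, 18 and 29 passing peaks at day 8 and none at day 0. MYOM1, the M-band protein myomesin, held 13, 7 and 19 against none, and ACTN2, the Z-disc crosslinker alpha-actinin, 7, 3 and 7 against none. Several defining genes carried few or no passing peaks at day 8: MYBPC3, TNNC1 and MYH7 had none, and TNNT2 had 1, 3 and 2.

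Calcium handling genes showed the same direction. Of 9 genes, 4 held more passing peaks in every day 8 library (5 with equal numbers), with 33 gained, 0 lost and 6 shared regions. The gained regions lay in 5 genes, and SLC8A1 held 25 of them, 24 without a day 0 cluster of any fold. The 3 gained regions in RYR2 and the 3 in CACNA1C all held a day 0 cluster below the threshold. Their share was 0.158% to 0.174% at day 0 and 1.71% to 2.68% at day 8. SLC8A1, the sodium-calcium exchanger that removes calcium from the cell, held 48, 41 and 75 passing peaks at day 8 and none at day 0. RYR2, the calcium release channel of the sarcoplasmic reticulum, held 10, 5 and 9 at day 0 and 26, 30 and 70 at day 8. CACNA1C, the pore of the L-type calcium channel, held 1, 0 and 0 against 9, 12 and 20. The locus of ATP2A2, the calcium pump SERCA2, had a higher share (log2 difference 1.56 ± 0.47) and was not called with equal numbers of peaks, and over the whole gene its peak numbers overlapped between the days. CASQ2 and CAMK2G had no passing peak at day 8.

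Cardiac transcription factors had few peaks, nearly all at day 8. Over 10 genes there were 5 gained regions, none lost and none shared. TBX20, a T-box factor of the developing heart, held 8, 6 and 13 passing peaks at day 8, MYOCD, the coactivator myocardin, 5, 3 and 10, and GATA4 5, 3 and 8, each against 0 in every day 0 library. GATA6, NKX2-5, HAND2 and ISL1 had none at either day.

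Pluripotency genes other than DNMT3B carried few passing peaks at either day. Over the whole gene DNMT3B held 16, 13 and 17 at day 0 and 0, 1 and 0 at day 8. Over 10 genes 4 regions were lost, 3 of them in DNMT3B and 1 in POU5F1, and 1 was shared. Their share was 0.155% to 0.329% at day 0 and 0.0316% to 0.0805% at day 8. With equal numbers of peaks no gene of this list had groups that did not overlap.

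Splicing regulators held both gains and losses. Of 13 genes, 4 held more passing peaks in every day 8 library and 2 fewer (7 and 1 with equal numbers), with 13 gained, 7 lost and 14 shared regions. RBM24, a muscle splicing activator, held 9, 10 and 16 passing peaks at day 8 and none at day 0, MBNL2, a muscleblind regulator, 4, 2 and 8, and RBM20, the titin splicing repressor, 3, 2 and 5. RBFOX1 went the other way, with 23, 14 and 13 at day 0 and 0, 1 and 1 at day 8, while its paralog RBFOX2 held 19, 10 and 12 against 19, 18 and 32. With equal numbers RBFOX1 was lower and RBFOX2 higher in every day 8 library. MBNL1 overlapped between the days, with 6, 3 and 1 against 4, 0 and 11.

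**Figure D5:**
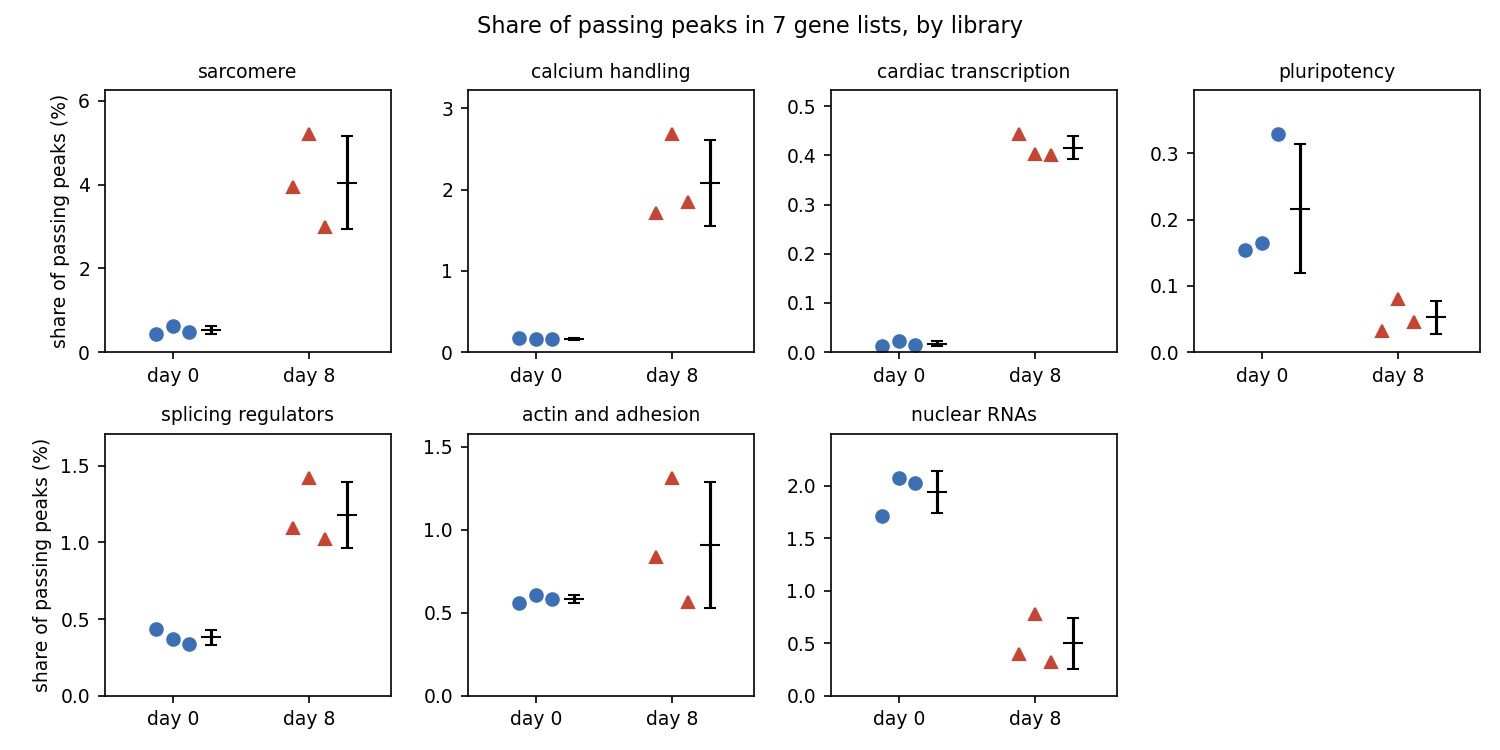
Points give the share of each library's passing peaks, in percent, on the genes of 7 lists, with day 0 as blue circles and day 8 as red triangles, and the mean with its SD (n = 3) to the right of each group. The sarcomere, calcium handling, cardiac transcription and splicing lists are higher in every day 8 library, the pluripotency and nuclear RNA lists lower, and the actin and adhesion list overlaps.

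Among axon guidance genes, ROBO1, another SLIT receptor, held 12, 10 and 8 passing peaks at day 0 and 0, 1 and 2 at day 8. SLIT2, a secreted ligand of ROBO receptors, went the other way with 2, 2 and 1 against 3, 3 and 14. DCC, the netrin receptor, had none.

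Actin and adhesion genes were mixed, with 4 gained, 12 lost and 10 shared regions over 9 genes. In every day 8 library 2 genes held more passing peaks and 4 fewer, and with equal numbers 2 held more and 0 fewer. Of all 3718 loci 48.5% held fewer (10.4% with equal numbers), so the 4 genes with fewer do not set this list apart. MICAL2, an enzyme that oxidises actin, held 0, 0 and 1 passing peaks at day 0 and 9, 10 and 14 at day 8. ESYT2, a tether between the endoplasmic reticulum and the plasma membrane, held 39, 41 and 37 against 8, 11 and 9, with 8 regions lost. With equal numbers its order turned, to 3, 4 and 3 against 8, 11 and 6, so its direction depended on the weaker day 0 peaks. NUMB, a cell fate determinant, held 9 in each day 0 library and 7, 6 and 7 at day 8, and with equal numbers 6, 5 and 7 against 7, 6 and 6, which overlapped. FN1 had passing peaks in day 8 replicate 1 alone, 5 in number.

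Of the nuclear RNAs besides MIAT, MEG3, an imprinted long noncoding RNA, held 6, 5 and 6 passing peaks at day 0 and none at day 8. NEAT1, the RNA scaffold of paraspeckles, overlapped with 24, 12 and 17 against 6, 9 and 14. MALAT1 had no passing peak in any library.

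By chromosome and strand, 13 of 47 shares of passing peaks differed (27.7%), 5 higher (10.6%) and 8 lower (17%) at day 8 (limma, Benjamini-Hochberg adjusted over the 47). The minus strand of chromosome 2, which carries TTN and SLC8A1, held 2.79% ± 0.0681 of passing peaks at day 0 and 6.84% ± 0.449 at day 8 (SD, n = 3; log2 difference 1.29 ± 0.07 SE, limma adjusted p = 5.72e-05). Without the 10 fullest loci the log2 difference was 1.08 (limma adjusted p = 0.000162). The plus strand of chromosome 22, which carries MIAT, held 2.62% ± 0.225 at day 0 and 0.855% ± 0.173 at day 8 (-1.63 ± 0.16, limma adjusted p = 0.000864), and -0.67 without the 10 fullest loci (limma adjusted p = 0.00254). The other higher shares were on both strands of chromosome 10 and the plus strands of chromosomes 6 and M, by 0.27 to 0.60 on the log2 scale. Chromosome M plus held 86, 80 and 62 passing peaks at day 0 and 64, 28 and 83 at day 8, numbers that overlapped. These are nearly the same peaks as the mitochondrial locus above. They passed here (limma adjusted p = 0.0342) and not in the test of loci, so this call is weak. The other lower ones were the plus strands of chromosomes 3, 8, 13, 16 and X and the minus strands of 7 and 21, by -0.66 to -0.26. With equal numbers of peaks 6 of the 13 were not past the threshold, namely 10 minus (limma adjusted p = 0.405), 3 plus (0.162), X plus (0.540), 6 plus (0.320), 7 minus (0.258) and 8 plus (0.847). Without day 0 replicate 1, 2 or 3, 1 chromosome-strand was higher and 1 lower.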

How the data were processed

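The authors' deposited files list clusters per IP library, and per day 1 list of reproducible peaks, named in the file headers for 4-fold enrichment and an IDR comparison of its 3 libraries. In both, the deposited values are a log2 fold of IP over input and a −log10 p, capped at 400. The submitters' processing notes name cutadapt, STAR, SAMtools and hg19, without versions. The peak caller is not given in the sources used here. The 9 input libraries entered through the authors' folds alone, and depth is unknown.

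From these files, regions were merged passing peaks, and loci were reproducible peaks joined within 20 kb. Locus counts were log2((peaks + 0.5)/(passing peaks + 1) × 10000) and were fitted with limma 3.58.1 (lmFit, eBayes with trend), and chromosome-strand shares of at least 20 mean peaks with eBayes, in R 4.3.3. Intervals and permutation tests used scipy 1.17.1. Peaks were ranked by fold for equal numbers. On simulated data with 30 of 121 loci changed, limma called 16.8% of those changed 2-fold, 87.8% at 4-fold and 99.7% at 8-fold. With 6 of 47 chromosome-strands changed, it recovered 12.5% of 1.5-fold and 67.5% of 2-fold changes. The simulation drew Poisson counts with the same added spread in every feature and on both days. These rates therefore hold for that setting and need not hold for these libraries.

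Alternatives were other joins, minimum peak numbers, pseudocounts, thresholds, scalings, a replicate block and leaving out each library. Named were the 8 loci with the smallest p per direction, the 4 uncalled loci with most peaks, the 6 most enriched regions per direction and 5 shared regions, called chromosome-strands and list members. The members and lists were chosen with earlier results of these data known. Some loci and genes under this rule, and the totals of the lists that hold them, are not reported here. Genes beyond the lists were placed after the loci were seen.

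Gene extents were written from general knowledge of hg19 and rounded outward to 1 kb, so a wrong extent would move a gene's counts. Of 180 such genes, 180 had their symbol on the same chromosome in RefSeq (GRCh38.p14), none of 139 with a listed strand differed from it, and of 165 genes of at least 10 kb 145 had a length within 10% and 20 did not. Genes recalled at a length or place that did not match that table had been left out before this count.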

Additional observations from a re-analysis of the deposited data

Results flagged for a closer look

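The day 4 libraries, which the comparison did not use, held a share of passing peaks above that of every day 0 library at 6 of the 8 named loci that were higher at day 8. In TTN the locus at chr2:179506621-179558861 took 0.333% ± 0.0626 of passing peaks at day 4 (SD, n = 3) and the locus at chr2:179585006-179623624 took 0.0953% ± 0.0589, both against 0 at day 0. COL13A1 took 0.393% ± 0.249 against at most 0.134% at day 0. VCAN took 0.120% ± 0.0152 against at most 0.0709%, and QKI 0.134% ± 0.0383 against at most 0.0630%. ASPH took 0.0532% ± 0.0211 against at most 0.0322%. These are shares of shorter lists. In peak numbers day 4 was not above day 0 at ASPH (1, 4 and 3 against 5, 4 and 3), VCAN (4, 8 and 5 against 6, 9 and 6) or QKI (3, 10 and 7 against 9, 8 and 7). SORBS2 went the other way, with 0, 1 and 0 peaks at day 4 against 13, 15 and 12 at day 0. The difference between day 4 and day 0 was not tested here.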

How the results depend on the processing

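Calls at the named loci changed less than the counts of called loci. The loci named higher or lower had been chosen for the smallest p on these same shares, so steady calls describe the choice. The 8 loci named higher kept direction and call under every alternative run for them, and so did 3 of 4 given as lower. The TTN, PDLIM5, COL13A1, VCAN and SORBS2 loci had also met the minimum number of reproducible peaks through day 8 peaks. The 4 given as lower had met it through day 0 peaks. Their steadiness is therefore no separate evidence of a difference. The chromosome 8 locus lost the call with equal numbers of peaks, centred or not. The uncalled chromosome 6 locus moved to -0.52 with the covariate (limma adjusted p = 0.0320) and to 0.91 on all listed clusters (0.00590). With equal numbers the minus strand of chromosome 7 moved to 0.17 and the plus strand of chromosome 8 to 0.030. The cause was not tested.

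Day 8 peaks that overlapped day 0 made up 51.8% with a reciprocal overlap of 50%, 67.6% with peaks widened by 50 nt and 31.7% at equal list length, and day 0 peaks that overlapped day 8 10.5%, 20.7% and 47.5%. Gained, lost and shared regions numbered 355, 385 and 368 with equal numbers and 195, 300 and 368 with absence judged on all passing peaks. With absence judged on any cluster 294 were gained and 1500 lost.

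Loci called higher and lower numbered 14 and 47 with equal numbers, 9 and 57 with the covariate, 41 and 22 on all clusters, 16 and 17 of 84 with peaks joined within 5 kb, 75 and 125 of 425 with at least 5 reproducible peaks, and 5 and 5 of 23 with at least 20. Chromosome-strands numbered 8 and 8 with equal numbers, where 6 of the 13 called on all passing peaks lost the call, and 4 and 5 without the 10 fullest loci.

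Leaving out each library gave ratios of passing peaks of 0.365 to 0.628, differences of the Jaccard index of 0.131 to 0.242, 527 to 1058 gained, 2869 to 3955 lost and 1115 to 1634 shared regions, 11 to 30 higher and 28 to 44 lower loci, and 1 to 8 higher and 1 to 11 lower chromosome-strands.

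No pairing by replicate number was seen in peak shares, although the check is weak with 3 libraries per day. Whether same-numbered libraries shared a culture is not in the labels. Deviations of same-numbered libraries correlated at 0.0066, -0.116 and 0.0312 over the 121 loci. The replicate block gave 23 higher and 30 lower loci, and 4 higher and 5 lower chromosome-strands.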

Other observations

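Genes outside the lists were picked after their values were seen, so their numbers are a description without a test. Some held passing peaks in every day 8 library and none at day 0. KCNQ5 and KCNH7, voltage-gated potassium channels, held 32, 15 and 52 and 21, 13 and 52 peaks, CHRM2, the muscarinic receptor of the heart, 7, 4 and 16, and CACNA1D, an L-type calcium channel pore, 8, 5 and 14. ERBB4, the neuregulin receptor, held 1, 0 and 0 at day 0 and 29, 16 and 58 at day 8. PCDH7, a protocadherin, held 24, 18 and 64 and FBN2 20, 16 and 38, against none. SMYD1, a muscle methyltransferase of sarcomere assembly, held 11, 11 and 14 against none.

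Other genes, ion channels and receptors included, held peaks mostly at day 0. DLGAP1, a postsynaptic scaffold, held 70, 60 and 50 passing peaks at day 0 and none at day 8, with 30 regions lost. UNC5D, a netrin receptor, held 53, 38 and 41 against 0, 0 and 1, PIEZO2, a mechanosensitive channel, 15, 16 and 14 against none, and SCN8A, a sodium channel, 18, 16 and 16 against 0, 0 and 1. RMST, a long noncoding RNA of neural differentiation, held 9, 10 and 9 against none. KIF4A and PRC1, which act in the mitotic spindle midzone, held 10, 9 and 7 against none and 12, 10 and 10 against 1, 1 and 2.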
